A study of Mus musculus with 6 samples.

Results

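The levels of 9 genes that control the stability of messenger RNA (mRNA) in T cells were followed in regulatory T cells (Tregs) labelled as wild type (WT) or knockout (KO) for Junb. The genes were taken by symbol: Zfp36, Zfp36l1 and Zfp36l2, the Roquin genes Rc3h1 and Rc3h2, the Regnase genes Zc3h12a and Zc3h12d, and Btg1 and Btg2. All 9 were found among the 53379 gene identifiers of the count tables, and all 9 passed the filter on low counts that left 20475 genes to test. The libraries came from sorted Tregs of C57BL/6 mice aged 3 months, the tissue being labelled T cell. The 3 WT libraries are labelled Foxp3YFP-CrexJunb+/+ and the 3 KO libraries Foxp3YFP-CrexJunbFlox/Flox, so both groups carry the Foxp3-driven Cre, which acts in cells that make FOXP3. The labels do not say whether libraries of the same genotype are from separate mice, so p-values here reflect how far these libraries scatter, and that scatter may be technical.

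The products of these genes shorten the life of mRNAs that encode cytokines, receptors and signalling proteins. ZFP36 proteins bind AU-rich elements through a pair of CCCH zinc fingers and recruit the CCR4-NOT complex, which removes the poly(A) tail. Roquin proteins bind stem-loops and also recruit CCR4-NOT, whereas Regnase-1, the product of Zc3h12a, cuts stem-loops itself. BTG proteins bind the CCR4-NOT deadenylase directly, and BTG1 and BTG2 are known for keeping resting T cells quiescent. In T cells the MALT1 protease cuts Roquin and Regnase-1 after stimulation through the antigen receptor.

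Levels are given as CPM, the counts of a gene relative to the library total, scaled with TMM, a method that evens out differences in library composition. Values of a genotype are listed in the order of replicates 1, 2 and 3. Junb, the gene altered in KO, stood at 87.1, 77.5 and 89.5 CPM in WT and at 57.1, 57.3 and 49.6 CPM in KO. The libraries labelled KO thus kept 64.5% of the WT level, so that most Junb RNA was still counted, with no overlap between genotypes (log2 difference -0.63, SE 0.13). Library totals ran from 33784183 to 41231173 counts, and the 9 genes had between 243 (Zc3h12a) and 35385 (Btg1) counts in a library. The spread between libraries of a genotype, fitted in common over all tested genes, came to a coefficient of variation of 51.0%. Within a genotype that of the 9 genes was smaller, from 5.31% (Btg1 in WT) to 30.9% (Zfp36l2 in WT). By edgeR's quasi-likelihood test with Benjamini-Hochberg adjustment over the 20475 genes, 0 genes passed an adjusted p of 0.05 (0%), and 590 (2.88%) had an unadjusted p under 0.05. By limma-voom 0 genes passed, and DESeq2 called 63 of 32929 genes (0.191%), Junb among them. Of those 32929 genes, 9731 were given no adjusted p by DESeq2 and could not be called.

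The libraries also differed in markers of other cells, given here as summed CPM over each list. Treg markers were lower in KO for 9 of 10 genes, with 1928 to 2342 CPM in WT and 914 to 2099.7 CPM in KO, lowest in KO replicate 1. Foxp3, which defines Tregs, stood at 39.5, 32.7 and 36.6 CPM in WT and at 28.1, 29.4 and 39.0 CPM in KO. Conventional or resting CD4 T cell markers were higher in KO for 9 of 11 genes, with 1620.3 to 2085 CPM in WT and 1709.5 to 2624 CPM in KO, highest in KO replicate 1. B cell markers (8 of 10 higher in KO) stood at 131 to 1134 CPM in WT and 543 to 702 CPM in KO, and the highest value was that of WT replicate 2. Myeloid markers (12 of 12 higher) ran from 137 to 1006 CPM in WT and from 403 to 1116 CPM in KO. CD8 T and NK cell markers (8 of 9 higher) ran from 86.3 to 174 CPM in WT and from 119 to 214 CPM in KO. Erythroid and platelet markers (6 of 6 tested higher) ran from 106 to 2757 CPM in WT and from 78.6 to 7629.8 CPM in KO, highest in KO replicate 1. T cell markers were lower for 8 of 8 genes, with 4585 to 5779.6 CPM in WT and 3983 to 4727 CPM in KO. None of the markers was at 0 in all 6 libraries, and those at 0 in at least 1 library were Cd14 and Ppbp. In bulk RNA, fewer cells of a type and less RNA per cell cannot be told apart. The part of these cells in the differences below was not tested.

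The regulators spanned a wide range of levels, which were compared between genes per kilobase of exon. Btg1 stood highest, at 176 ± 9.37 CPM per kilobase in WT (SD, n = 3, as for every mean below) and 150.03 ± 8.20 in KO. Next in WT came Zfp36l1 (78.4 ± 4.78), Btg2 (67.5 ± 7.08), Zfp36 (63.3 ± 8.29) and Zfp36l2 (38.7 ± 11.98 CPM per kilobase). The endonuclease genes followed with 7.03 ± 1.58 for Zc3h12d and 5.04 ± 1.25 CPM per kilobase for Zc3h12a. Rc3h1 (3.56 ± 0.566) and Rc3h2 (1.91 ± 0.162 CPM per kilobase) stood lowest. The WT libraries overlapped between the neighbours Btg2 and Zfp36, Zc3h12d and Zc3h12a, and Zc3h12a and Rc3h1. Within libraries, Zc3h12d nonetheless stood above Zc3h12a in 6 of 6, Btg2 above Zfp36 in 5 of 6 and Zc3h12a above Rc3h1 in 2 of 6. Zfp36l1 and Btg2 barely separated, with a lowest Zfp36l1 value of 75.5 and a highest Btg2 value of 75.5 CPM per kilobase, and Zfp36l1 stood above Btg2 in 4 of the 6 libraries. With the length of the longest coding transcript in place of all exons, Rc3h2, whose annotated transcripts include retained introns, came to 4.18 CPM per kilobase and stood above Rc3h1 (3.65). Zfp36 then came to 78.7 CPM per kilobase, next to the 78.4 of Zfp36l1. With either length the ZFP36 and BTG genes stood above the Roquin and Regnase genes.

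**Figure D1:**
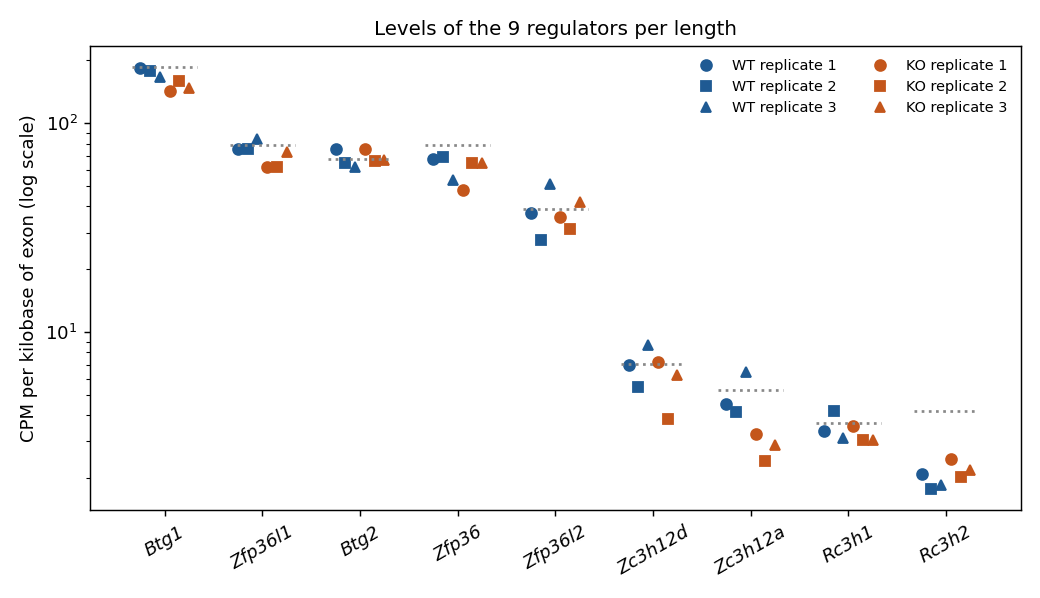
Level of each gene in CPM per kilobase of exon (log axis) in the 6 libraries, with genes in the order of their WT mean. The dotted line is the WT mean when the length of the longest coding transcript is used, and Rc3h2 is the gene that it moves most, from 1.91 to 4.18.

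Of the 9 regulators 7 had a lower fitted level in KO and 2 a higher one, with a median log2 difference of -0.15. Over the 20475 genes tested 49.1% were lower, with a median of 0.0055. In 3 of the 9 genes, Zc3h12a, Zfp36l1 and Btg1, the KO values were all below the WT values. Of all genes tested 7.76% had libraries that did not overlap, 4.07% with KO lower and 3.68% with KO higher. Among the 10203 genes with a mean of at least 10 CPM, a level that all 9 regulators reach, the share was 7.13%, and 4.07% with KO lower. An unadjusted p under 0.05 was found for 2 of the 9, Zc3h12a and Btg1, beside 2.88% of all genes and 2.76% of those of at least 10 CPM. Without KO replicate 1, the library with the lowest Treg marker sum, 7 of the 9 were lower, with Btg2 (-0.030) in place of Zfp36 (0.026), and the log2 differences of Zc3h12a, Zfp36l1 and Btg1 were -0.93, -0.22 and -0.20. By edgeR, limma-voom and DESeq2 0 of the 9 passed the adjusted threshold, and each had an adjusted p of 0.9999 by edgeR's quasi-likelihood test. The values below are therefore given as descriptions, and the exact permutation test over 3 against 3 libraries cannot go below a two-sided p of 0.1.

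**Figure D2:**
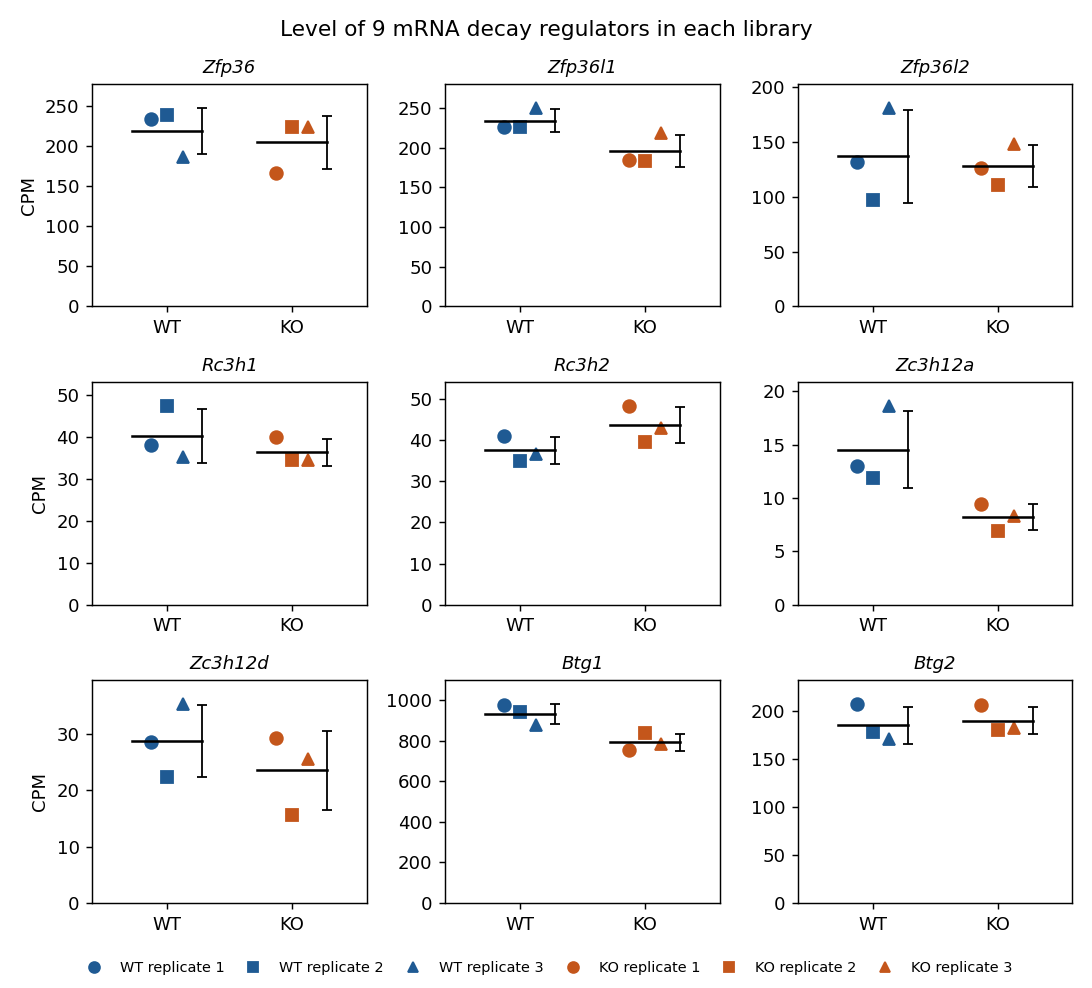
CPM of each of the 9 genes (vertical axes from 0, on a scale of their own) in the 3 WT and 3 KO libraries. Each point is a library, the line is the mean and the bar beside it the SD. Zc3h12a, Zfp36l1 and Btg1 show no overlap between genotypes, and the other genes overlap.

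To set the 5 members that differed without overlap or held a transcription factor motif beside their start regions, the 250 bases before the RefSeq start (GRCm38.p6) are printed, 5′ to 3′ on the strand of the gene. RefSeq entries were found for 8 of the 9 genes. Zc3h12a, Btg1 and Zfp36l1 are shown because their libraries did not overlap, and Rc3h1 and Btg2 because they hold a match. In the labels chr4.0 stands for chromosome 4, and the other chromosomes are written likewise. Capitals mark exact matches to TGANTCA, a loose form of the AP-1 motif, or to TGACGTCA, the CRE motif. The AP-1 motif that JUN and FOS dimers bind has C or G in the middle, where TGANTCA allows any base. TGANTCA and TGACGTCA each read the same on both strands, and the letters of one cannot match the other at the same place.
Zc3h12a (chr4.0:125127882-125128131, minus strand): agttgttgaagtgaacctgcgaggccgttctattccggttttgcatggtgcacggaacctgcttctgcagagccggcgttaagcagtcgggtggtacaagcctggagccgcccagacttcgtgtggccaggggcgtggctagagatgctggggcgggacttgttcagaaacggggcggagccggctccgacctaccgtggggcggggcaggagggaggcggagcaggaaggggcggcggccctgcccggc
Btg1 (chr10.0:96616751-96617000, plus strand): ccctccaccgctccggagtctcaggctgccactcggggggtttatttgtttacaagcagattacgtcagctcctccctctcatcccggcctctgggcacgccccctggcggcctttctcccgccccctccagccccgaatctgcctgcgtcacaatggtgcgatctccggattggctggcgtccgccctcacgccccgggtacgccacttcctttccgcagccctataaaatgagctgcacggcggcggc
Zfp36l1 (chr12.0:80113014-80113263, minus strand): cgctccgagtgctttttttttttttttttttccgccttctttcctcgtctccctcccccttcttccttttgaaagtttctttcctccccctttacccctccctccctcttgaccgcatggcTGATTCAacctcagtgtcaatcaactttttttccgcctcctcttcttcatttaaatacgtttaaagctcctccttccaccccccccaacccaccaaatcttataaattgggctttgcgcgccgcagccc
Rc3h1 (chr1.0:160906161-160906410, plus strand): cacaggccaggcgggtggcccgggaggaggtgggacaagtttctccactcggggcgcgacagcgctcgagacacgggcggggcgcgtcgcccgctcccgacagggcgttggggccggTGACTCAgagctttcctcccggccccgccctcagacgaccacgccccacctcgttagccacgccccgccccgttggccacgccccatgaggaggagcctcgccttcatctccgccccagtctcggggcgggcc
Btg2 (chr1.0:134079156-134079405, minus strand): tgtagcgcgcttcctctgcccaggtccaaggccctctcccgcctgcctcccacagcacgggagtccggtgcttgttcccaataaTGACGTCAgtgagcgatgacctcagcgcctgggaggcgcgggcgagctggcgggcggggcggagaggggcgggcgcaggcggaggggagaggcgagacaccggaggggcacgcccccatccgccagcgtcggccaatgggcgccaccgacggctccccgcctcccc
Zfp36l1 held TGATTCA, which matches the loose form only, at 129 to 123 bases before the start. Rc3h1 held TGACTCA at 133 to 127 bases before its start. Btg2 held TGACGTCA at 166 to 159 bases before its start. Matches were thus found in 3 of the 8 windows. Of 32851 promoter windows of the same length in the RefSeq table, 6.75% held TGANTCA and 1.55% held TGACGTCA. The matched windows belong to 1 gene whose libraries did not overlap (Zfp36l1) and 2 whose libraries did (Rc3h1 and Btg2). A match is a run of letters and not a measured binding site.

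Zc3h12a, which encodes the endoribonuclease Regnase-1, had the largest difference of the 9 genes. The gene (ENSMUSG00000042677.7) spans 125118423 to 125127840 of chromosome 4 (GRCm38, minus strand), and its coding transcript has 6 exons. It stood at 13.01, 11.9 and 18.6 CPM in WT and at 9.41, 6.94 and 8.30 CPM in KO. Every KO library was below the lowest WT library, and WT replicate 3 was the highest. The means were 14.5 ± 3.60 and 8.22 ± 1.24 CPM, and KO had 56.6% of the WT level. This is a log2 difference of -0.82 (SE 0.27, 95% interval -1.47 to -0.17), the unadjusted edgeR p was 0.0202 and the exact permutation p was 0.1. Its promoter window, the first printed above, held neither motif. Leaving out each library in turn gave log2 differences from -0.95 to -0.61, and the gene kept its direction in all 13 other settings of the analysis. Since its libraries did not overlap, leaving out a library could not turn the direction, and the remaining settings refitted the same 6 libraries. WT replicate 3 also had the highest sum of Treg markers (2342 CPM) and the lowest of B cell markers (131 CPM), whereas the lowest Zc3h12a value was that of KO replicate 2, where Treg markers stood at 1577 CPM.

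The related gene Zc3h12d, which encodes the Regnase family member Regnase-4, overlapped between genotypes. It lies on chromosome 10 at 7832470 to 7870396 on the plus strand. Zc3h12d stood at 28.5, 22.4 and 35.3 CPM in WT and at 29.4, 15.7 and 25.6 CPM in KO. As for Zc3h12a, KO replicate 2 was the lowest library and WT replicate 3 the highest. Its log2 difference was -0.29 (SE 0.29, 95% interval -0.97 to 0.39), and it was -0.064 without KO replicate 2. Within a library Zc3h12d exceeded Zc3h12a by 1.402 ± 0.124 times per kilobase in WT and by 1.99 ± 0.343 times in KO.

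Of the ZFP36 family, whose proteins bind AU-rich elements, Zfp36l1 had libraries that did not overlap. It stood at 226, 226 and 251 CPM in WT and at 184, 184 and 219 CPM in KO. All 3 KO libraries were below the WT libraries, KO replicate 3 by the smallest margin. The means were 234 ± 14.3 and 196 ± 20.3 CPM, with a log2 difference of -0.26 (SE 0.12, 95% interval -0.54 to 0.02) and an exact permutation p of 0.1. Zfp36l1 (chromosome 12, 80107754 to 80113013, minus strand) shares 1672 of its 2990 exon bases with Gm26669, a lincRNA gene annotated on the other strand. No source used here says whether counting used strand, so reads of the shared bases cannot be assigned to either gene. Gm26669 was counted at 131, 139 and 144 CPM in WT and at 113, 110.0 and 133 CPM in KO, and its genotypes overlapped (log2 difference -0.22, SE 0.12). When the Gm26669 value was taken off, Zfp36l1 kept 94.5, 87.7 and 106 CPM in WT and 71.1, 73.8 and 86.1 CPM in KO. These remainders did not overlap, with means of 96.2 ± 9.49 and 77.0 ± 7.98 CPM. They have a meaning only if reads of the shared bases were counted for both genes, which no source used here states and which was not tested. Gm26669 has 1808 exon bases in all, most of them shared. Its counts and those of Zfp36l1 may therefore be largely the same reads, and its difference is not a separate observation.

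Zfp36, which encodes tristetraprolin, and Zfp36l2 overlapped between genotypes. Zfp36 (chromosome 7, 28376784 to 28380253, minus strand) stood at 234, 239 and 187 CPM in WT and at 166, 225 and 224 CPM in KO. KO replicates 2 and 3 lay within the WT range, and KO replicate 1 was the lowest library. On the log2 scale KO differed by -0.10 (SE 0.17, 95% interval -0.49 to 0.29), and without KO replicate 1 it was 0.026. Zfp36 shares 125 exon bases with the antisense gene Gm44710, which had at most 172 counts in a library where Zfp36 had at least 6277. Zfp36l2 (chromosome 17, 84183931 to 84187947, minus strand) stood at 132, 97.2 and 181 CPM in WT and at 126, 110.4 and 148 CPM in KO. The WT libraries enclosed all 3 KO libraries, and replicate 3 was the highest and replicate 2 the lowest of either genotype. Its log2 difference was -0.09 (SE 0.24, 95% interval -0.66 to 0.47), and 0.16 without WT replicate 3. Zfp36l2 shares 105 exon bases with another gene on the opposite strand.

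The Roquin genes had differences of opposite sign and overlapped between genotypes. Rc3h1, which encodes Roquin-1 (chromosome 1, 160906418 to 160974978, plus strand), stood at 38.1, 47.4 and 35.1 CPM in WT and at 40.0, 34.6 and 34.4 CPM in KO. WT replicate 2 was the highest library, and the other 5 lay between 34.4 and 40.0 CPM. The log2 difference was -0.15 (SE 0.17, 95% interval -0.55 to 0.25), and -0.013 without WT replicate 2. Rc3h2, which encodes Roquin-2 (chromosome 2, 37370069 to 37422903, minus strand), stood at 41.0, 34.8 and 36.6 CPM in WT and at 48.3, 39.6 and 43.0 CPM in KO. KO replicates 1 and 3 were above all WT libraries, and KO replicate 2 was below WT replicate 1. The difference, 0.22 on the log2 scale (SE 0.15, 95% interval -0.13 to 0.57), was the larger of the 2 positive differences among the 9 genes, and it was 0.14 without KO replicate 1.

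Btg1, the most abundant of the 9 genes, had a lower mean in KO and the smallest standard error of the 9. The gene (ENSMUSG00000036478.8) spans 96617006 to 96622809 of chromosome 10 (plus strand). It stood at 974, 939.9 and 877 CPM in WT and at 754, 839 and 782 CPM in KO. The genotypes did not overlap, with WT replicate 3 and KO replicate 2 nearest to each other. The means were 930.3 ± 49.4 and 792 ± 43.3 CPM, and KO had 85.1% of the WT level. KO thus differed by -0.23 on the log2 scale (SE 0.10, 95% interval -0.46 to -0.0022), the unadjusted edgeR p was 0.0483 and the exact permutation p was 0.1. Of the tested genes 0.757% were more abundant in CPM than Btg1. Its range over settings was -0.28 to -0.19.

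Btg2, its paralog, overlapped between genotypes. Btg2 (chromosome 1, 134075170 to 134079120, minus strand) stood at 207, 178 and 170.3 CPM in WT and at 206, 180.5 and 183 CPM in KO. All 3 KO libraries lay within the WT range, and replicate 1 was the highest of either genotype. On the log2 scale KO differed by 0.04 (SE 0.12, 95% interval -0.26 to 0.33), so a higher level by more than 0.33 on the log2 scale lies outside the interval. Leaving out WT replicate 3 gave -0.025 and leaving out KO replicate 1 gave -0.030. Of the 9 genes Btg2 varied least over the 6 libraries, with a coefficient of variation of 8.23%, and Zc3h12a most, with 37.0%.

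**Figure D3:**
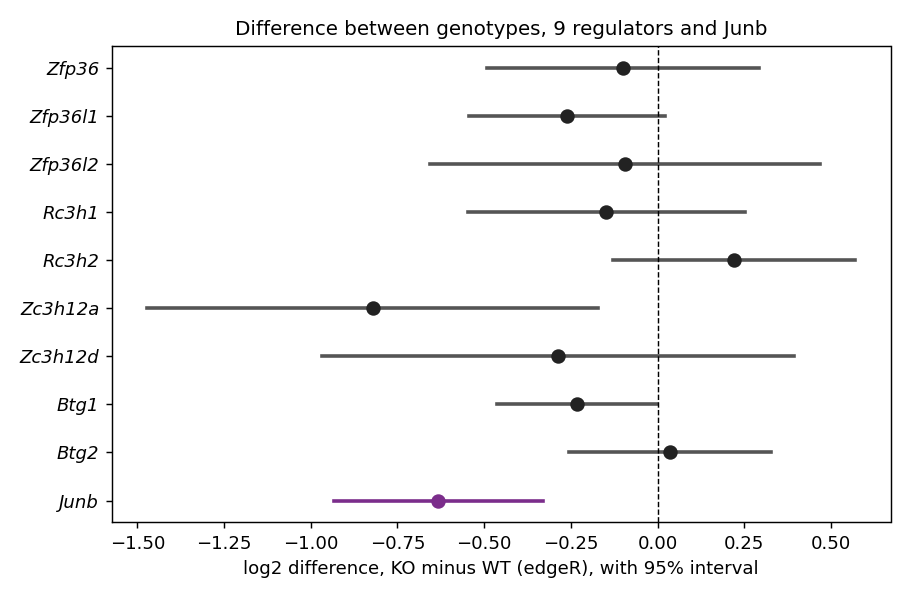
Log2 difference between KO and WT (horizontal axis) for the 9 genes and Junb, with the 95% interval of the edgeR fit. The intervals of Zc3h12a (-1.47 to -0.17), Btg1 and Junb lie below 0, and those of the other 7 genes cover it.

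Since both genes of a pair are read in the same library, the balance of related regulators was also compared as 6 ratios of CPM per kilobase. The ratio of Btg1 to Btg2 was 2.45, 2.75 and 2.68 in WT and 1.90, 2.42 and 2.23 in KO. The ratio of Rc3h1 to Rc3h2 was 1.62, 2.36 and 1.67 in WT and 1.44, 1.52 and 1.39 in KO. That of Zc3h12d to Zc3h12a was 1.54, 1.33 and 1.34 in WT and 2.20, 1.59 and 2.17 in KO. These 3 ratios did not overlap between genotypes, though the nearest libraries were close, at 2.45 and 2.42 for Btg1 to Btg2. The ratios with Btg1 and Zc3h12a hold genes whose own libraries did not overlap, so they partly restate those differences. How often ratios of other gene pairs lack overlap was not computed. Each had an exact permutation p of 0.1, the smallest possible, and 0.2 after adjustment over the 6 ratios. The 3 ratios within the ZFP36 family overlapped, and that of Zfp36l2 to Zfp36 had means of 0.636 ± 0.286 in WT and 0.626 ± 0.133 in KO.

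**Figure D4:**
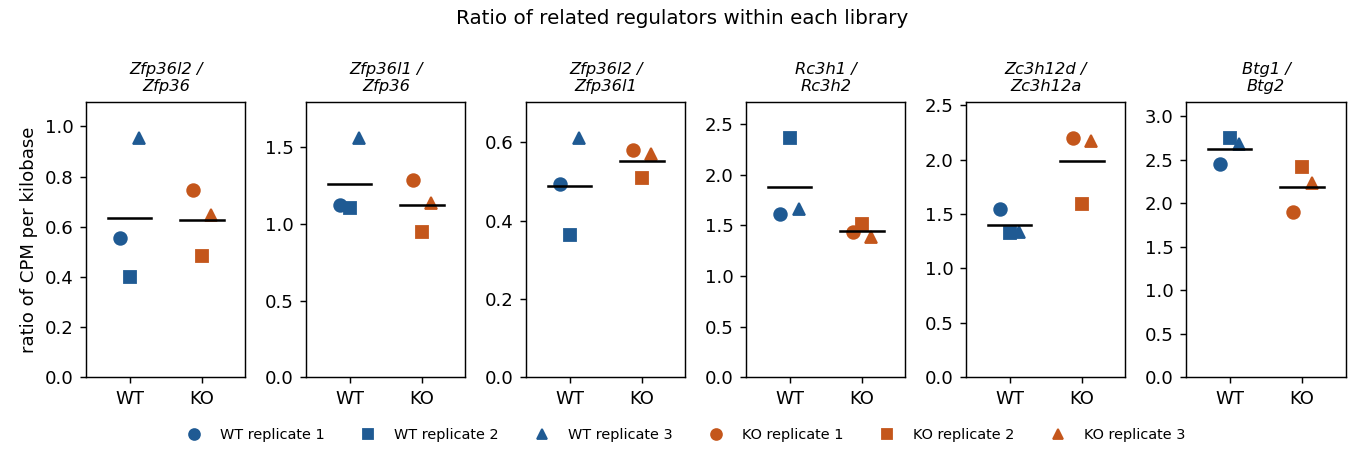
Ratio of CPM per kilobase of 2 related genes within each library (vertical axes from 0), with the mean of each genotype as a line. The ratios Rc3h1 to Rc3h2, Zc3h12d to Zc3h12a and Btg1 to Btg2 do not overlap between genotypes, and the 3 ZFP36 family ratios do.

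The table names hold a number that divides the libraries into 2 sets, one with WT replicates 1 and 2 and KO replicate 2 and the other with WT replicate 3 and KO replicates 1 and 3. No source used here says what it stands for. Within the 2 sets the log2 difference of Zc3h12a was -0.84 and -1.08, that of Zfp36l1 -0.30 and -0.32, and that of Btg1 -0.19 and -0.19. These 3 genes were lower in KO in both sets, which must follow for genes whose libraries do not overlap. Zfp36l2 (-0.036 and -0.41) and Zc3h12d (-0.69 and -0.36) were lower in both as well, and Rc3h2 was higher in both (0.068 and 0.32). Zfp36 (-0.072 and 0.048), Rc3h1 (-0.30 and 0.079) and Btg2 (-0.088 and 0.19) changed sign between the sets. The values within a set are given without a test. With the set as a term in the edgeR fit, Zc3h12a differed by -0.96, Zfp36l1 by -0.31 and Btg1 by -0.19 on the log2 scale, and 0 genes passed.

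None of the enzymes that these regulators recruit passed the adjusted threshold, which by edgeR 0 of all 20475 tested genes passed. Of 14 CCR4-NOT subunits and other deadenylases 6 were lower and 8 higher in KO, with a median log2 difference of 0.03 and 0 past the adjusted threshold. Pan3, a subunit of the PAN2-PAN3 deadenylase (145 ± 13.8 CPM in WT, 146 ± 1.32 CPM in KO), and the CCR4-NOT scaffold Cnot1 (85.6 ± 7.77 and 93.3 ± 9.88 CPM) were the most abundant and overlapped. Cnot7, a catalytic deadenylase to which BTG proteins bind, was the 1 gene of the 14 without overlap, where 7.76% of all tested genes had none. It stood at 27.1, 25.1 and 20.7 CPM in WT and at 18.0, 16.1 and 17.6 CPM in KO. All 3 KO libraries were below the WT libraries (log2 difference -0.50, SE 0.19, unadjusted edgeR p of 0.0332), and Cnot7 overlaps another annotated gene, which makes its count uncertain. The same holds for Junb and Foxp3 and, of the genes named below, Tob2, Lsm14a, Exosc8, Exosc5, Khsrp, Notch1 and Jun, and for Cnot1 above. Its paralog Cnot8, named after its values were seen, stood at 54.5 ± 6.42 and 61.5 ± 8.22 CPM.

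Of 16 genes of decapping and decay from the 5′ end 10 were lower and 6 higher in KO (median -0.03), and of 12 exosome genes 4 were lower and 8 higher (median 0.10). None of the 28 had libraries without overlap or passed by edgeR, where 0 also had an unadjusted p under 0.05, and 0 were called by DESeq2 or limma-voom. Over all tested genes 7.76% had libraries without overlap and 2.88% an unadjusted edgeR p under 0.05, small shares for a list of 28. The helicase Ddx6 (112 ± 12.3 and 123 ± 17.1 CPM), Lsm14a (60.4 ± 15.1 and 60.7 ± 8.84 CPM) and the exosome subunits Exosc8 (83.6 ± 9.20 and 66.4 ± 11.9 CPM) and Exosc5 (74.2 ± 3.43 and 69.9 ± 6.79 CPM) were the most abundant. Of 7 other members of the same families 5 were tested, 4 of them lower in KO (median -0.40, and -0.14 without KO replicate 2), all with overlap. Tob2, a relative of the BTG genes, stood at 50.3 ± 10.6 and 37.7 ± 4.36 CPM, and Tob1 at 14.1 ± 1.01 and 11.01 ± 5.12 CPM. Btg4 and Zfp36l3 had 0 counts in the 6 libraries.

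Of 13 cofactors and competing RNA-binding proteins 10 were lower and 3 higher in KO, with a median of -0.07. Libraries without overlap, which 7.76% of all tested genes had, were found for 0 of them. The most abundant were the repressor Pum2 (156 ± 10.3 and 148 ± 15.1 CPM) and Khsrp, another protein that binds AU-rich elements (119.5 ± 25.9 and 118 ± 8.83 CPM). Malt1, whose protease cuts Roquin and Regnase-1, stood at 47.8 ± 10.3 and 58.3 ± 5.80 CPM. Arid5a, whose product shields mRNAs from Regnase-1, stood at 96.7 ± 14.6 and 89.4 ± 18.2 CPM. Both were named after their values were seen.

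The mRNAs that these proteins are known to destabilise did not share a direction. Of 11 known targets of ZFP36 proteins 7 were tested, 3 lower and 4 higher in KO (median 0.06). Tnf, a classic target of ZFP36, stood at 22.1 ± 4.91 and 23.1 ± 7.78 CPM, and the receptor Notch1 at 98.2 ± 7.48 and 77.9 ± 17.7 CPM. Libraries without overlap, which 7.76% of all tested genes had, were found for Il10 (5.61 ± 2.26 and 1.71 ± 0.566 CPM) and Fos (29.9 ± 9.03 and 13.3 ± 3.25 CPM). In the other direction they were found for Ier3 (0.959 ± 0.375 and 2.29 ± 0.697 CPM). Of 14 known Roquin and Regnase targets, which share Tnf and Il2 with that list, 11 were tested, 7 lower and 4 higher in KO (median -0.27, and -0.11 without KO replicate 1). The receptors Tnfrsf4 (372 ± 36.8 and 265 ± 118 CPM) and Icos (246 ± 48.7 and 171 ± 58.1 CPM) were the most abundant. Their lowest values, 141 and 124 CPM, were those of KO replicate 1, the library with the lowest sum of Treg markers (914 CPM). Nfkbiz, a known Roquin and Regnase-1 target, stood at 51.7, 42.5 and 59.1 CPM in WT and at 37.7, 36.2 and 37.7 CPM in KO, without overlap. Its log2 difference was -0.46 (SE 0.16), and 0 genes of either list passed by edgeR, limma-voom or DESeq2.

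**Figure D5:**
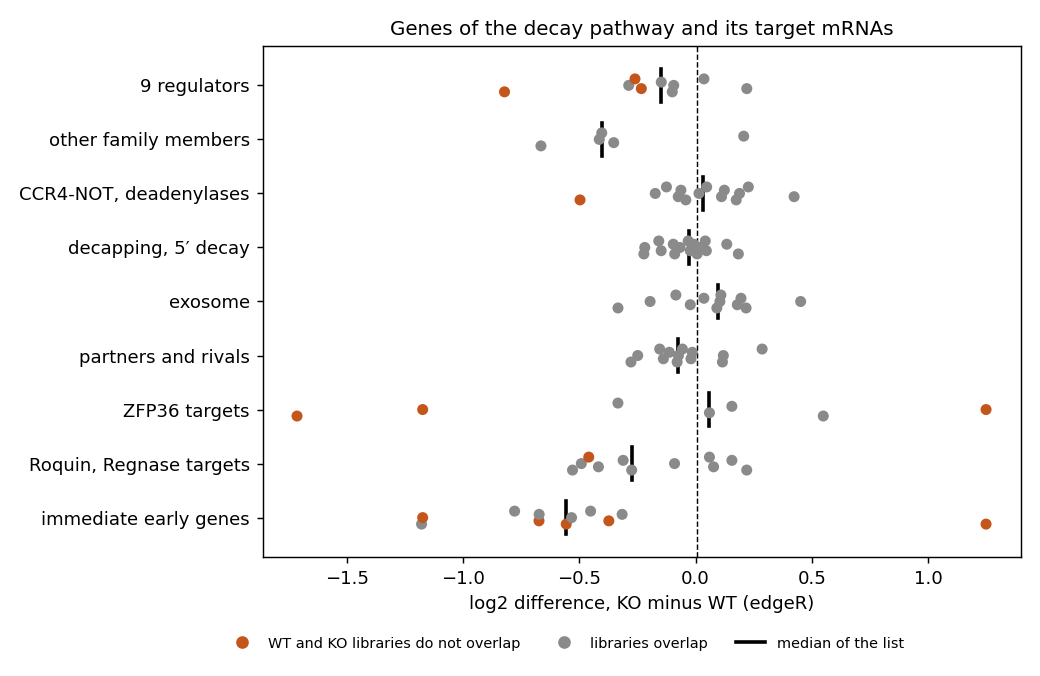
Log2 difference between KO and WT (horizontal axis) of each tested gene, by list, with the median of the list as a bar and that of all genes as a dashed line. Orange points are genes whose WT and KO libraries do not overlap. The median of the 9 regulators is -0.15 and that of the deadenylases 0.03.

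Zfp36 and Btg2 are also known as genes that cells raise within minutes of stimulation or handling, so they were set beside 13 other such genes. Of the 11 tested, 10 were lower and 1 higher in KO, with a median log2 difference of -0.56. Over all tested genes 49.1% were lower, with a median of 0.0055, and 7.76% had libraries without overlap. The summed level of the 13 genes was 342, 341 and 317 CPM in WT and 212, 239.8 and 241 CPM in KO, without overlap. Ier2 (73.4 ± 17.0 and 53.7 ± 8.05 CPM) and Nr4a1 (60.9 ± 8.32 and 48.9 ± 15.5 CPM) were the most abundant and overlapped between genotypes. Egr1 (41.6 ± 3.98 and 28.3 ± 5.29 CPM) and Jun (8.45 ± 1.75 and 5.30 ± 0.519 CPM), like Fos above, did not overlap and were lower in KO, as was Dnajb1 (named after its values were seen), and Ier3 was higher. Zfp36 and Btg2, at 93.3% and 103% of the WT level in KO, overlapped. The part of stimulation or handling in the values of the 9 genes was not tested, and 0 of the genes passed the adjusted threshold.

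The patterns over the 6 libraries were compared by the root mean square difference of log2 CPM, each gene centred on its own mean. This is a description over 6 libraries that also differed in depth and in markers of other cells. A gene's distance to a flat pattern, which is its own spread, sets the scale. Among the 9 genes the smallest distance was that of Rc3h2 and Btg2 (0.10), but a flat pattern lay as near to Btg2 (0.11). Btg1 lay 0.14 from Zfp36l1 and 0.13 from a flat pattern, so that it had no near neighbour among the 9. Zc3h12a, the gene with the widest spread (0.47), lay 0.30 from Zc3h12d. Among 8015 other coding genes of at least 10 CPM, the nearest to Btg1 was Laptm5, a lysosomal membrane protein gene of blood cells (0.039). Zfp36l1 was nearest to Ddrgk1 (0.042), Zfp36 to Appbp2 (0.030) and Zfp36l2 to Ngrn (0.042). Rc3h1 was nearest to Brwd1 (0.037), Rc3h2 to Gm38431 (0.036), Btg2 to BC031181 (0.030) and Zc3h12d to Hipk2 (0.063). The nearest to Zc3h12a was Ldlrad4, a TGF-beta signalling inhibitor gene, at a distance of 0.17. Ldlrad4 stood at 17.2, 12.9 and 22.5 CPM in WT and at 10.9, 8.97 and 13.2 CPM in KO.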

How the data were processed

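RNA of FACS-sorted Tregs was made into libraries with a SMARTer low-input kit and read as single reads of 50 bases, per the labels' protocols. The deposited values are raw read counts per Ensembl gene, 1 table per library. Per the submitters' processing notes the authors used bcl2fastq 2.19.0.316, STAR 2.3 and featureCounts with mm10. The annotation release and strand setting were not given in those sources. Without molecular identifiers, PCR copies count as reads.

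Of 53379 identifiers 53274 were matched to GENCODE M21 (GRCm38). Counts were tested with edgeR 4.0.16 (R 4.3.3): filterByExpr, TMM, robust quasi-likelihood F tests (two-sided) of a genotype term, and p-values adjusted by Benjamini-Hochberg over all tested genes. Standard errors come from the F statistic. Alternatives used limma 3.58.1 (voom), DESeq2 1.42.0, RLE factors, other filters, a replicate block, the table-name number and each library left out. The script was tested on simulated data. The genes and lists were chosen with earlier results of these data known. All 9 genes are named. From each list the 2 most abundant genes and up to 4 without overlap are named, and for each of the 9 the nearest gene in pattern. The replicate numbers are not shown to pair the samples. Same-numbered deviations correlated at -0.084, 0.16 and 0.026, and differently numbered ones at -0.15 to 0.12. With 3 replicates of a genotype these values cannot decide whether the numbers mark pairs. No 2 libraries were merged, and 0 of the 9 genes shared its counts with another gene.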

Additional observations from a re-analysis of the deposited data

How the results depend on the processing

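No setting called any of the 9 genes: their smallest adjusted p was 0.365, for Zc3h12a with DESeq2. Over the 13 settings Zc3h12a, Zfp36l1, Btg1, Zc3h12d and Rc3h1 stayed lower in KO and Rc3h2 higher. For Zc3h12a, Zfp36l1 and Btg1, whose libraries did not overlap, leaving out a library could not turn the direction. Zfp36 turned to 0.026 without KO replicate 1, Zfp36l2 to 0.16 without WT replicate 3 and 0.0035 without KO replicate 2, and Btg2 to -0.025 without WT replicate 3 and -0.030 without KO replicate 1. With a library left out, the ranges were -0.21 to 0.026 for Zfp36, -0.29 to 0.16 for Zfp36l2 and -0.030 to 0.12 for Btg2, and 6 to 7 of the 9 genes were lower in KO. DESeq2 called 63 genes where edgeR called 0, and called Junb (log2 difference -0.63, adjusted p = 0.00417). The replicate block called 0 genes (Zc3h12a at -0.81) and changed no call, and the replicate numbers are not shown to pair samples. With a library left out, the median of the decapping list ran from -0.11 to 0.064 and that of the exosome list from -0.018 to 0.13, where 3 to 7 of 12 genes were lower (7 without KO replicate 1). Of the cofactors 6 to 11 of 13 were lower (6 without KO replicate 2). Of the ZFP36 targets 3 to 6 of 7 were lower, with medians from -0.29 to 0.25 (6 and -0.29 without KO replicate 3). With the longest coding transcript, chosen after seeing the data, WT levels were 78.7 for Zfp36, 4.18 for Rc3h2 and 186 CPM per kilobase for Btg1. With a library left out, the median of the Roquin and Regnase targets ran from -0.35 to -0.11 (7 to 9 of 11 lower) and that of the other family members from -0.58 to -0.14. The causes were not tested. How far depth, at 243 or more counts per gene, limits the intervals was not tested.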
